A study of Arabidopsis thaliana with 60 samples.

Results

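The genes examined here were the 5 Arabidopsis thaliana genes for demethylases that remove methyl groups from lysine 27 of histone H3: REF6 (AT3G48430), ELF6 (AT5G04240), JMJ13 (AT5G46910), JMJ30 (AT3G20810) and JMJ32 (AT3G45880). They were chosen by name, and all 5 were found among the 27432 protein-coding genes of the nuclear chromosomes. For each gene, the share of the gene body and of the 2 kb on each side that lay under deposited ChIP-seq peaks was read out of every peak list. REF6, JMJ30 and JMJ32 lie on chromosome 3, and ELF6 and JMJ13 lie on chromosome 5.

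The study profiled whole seedlings of 8 days by ChIP-seq, in which DNA bound to a modified histone is precipitated and sequenced. The single-end series covered H3K27me3 and K4 trimethylation, with 2 libraries of each mark for each genotype. Its genotypes were the loss-of-function alleles ult1-2 and ult1-3 and the gain-of-function line 35S::ULT1, all in Landsberg erecta background, with the wild type Ler, and then the loss-of-function mutant ref6-3 with its wild type Col-0. The paired-end series covered H3K27me3 alone, with 1 peak list per genotype, all in Col-0 background. Its genotypes were the single mutants ult1-3, swn-7 and clf-28, the double mutants ult1-3 swn-7 and ult1-3 clf-28, and Col-0 as wild type. The 35S promoter comes from a plant virus and is active in most tissues, and the labels do not describe the molecular lesion of any allele. Seedlings are a mixture of cell types, so a peak in part of the cells and a weaker mark in all of them cannot be told apart. Histone marks over REF6 say nothing of whether its protein is made, so they are no check of the ref6-3 label. For the K4 libraries the antibody tag names histone H4 while the titles give only K4, and the name K4 trimethylation is used for that reason.

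H3K27me3 is the repressive mark of Polycomb. It is written by Polycomb repressive complex PRC2, whose methyltransferase subunits in vegetative tissue are CLF and SWN, and it is erased by proteins with a Jumonji C domain. REF6, ELF6 and JMJ13 form one branch of these proteins. REF6 binds a short DNA motif through its zinc fingers, and its loss delays flowering, whereas loss of ELF6 or of JMJ13 speeds it. JMJ30 and JMJ32 form another branch. JMJ30 is transcribed with a daily rhythm and takes part in the circadian clock, and JMJ30 and JMJ32 together keep H3K27me3 low at the flowering repressor gene FLC in warmth. ULT1 carries a SAND domain and belongs to the trithorax group, which counteracts Polycomb. K4 trimethylation is found at the start of transcribed genes.

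The number of peaks was 6379 to 9945 in the single-end lists of H3K27me3, 15527 to 16510 in those of K4 and 3703 to 5987 in the paired-end lists. The ChIP reads inside peaks, in units of 1e6 reads (M), numbered 8.79 to 22.4 M per H3K27me3 library and 16.5 to 22.5 M per K4 library, and for the paired-end lists the depth is unknown. Peaks lay on windows of 200 bp. One window was 3.61% of the REF6 body, 3.42% of ELF6, 3.97% of JMJ13, 7.20% of JMJ30 and 7.42% of JMJ32, so a difference of that size is 1 step of the peak caller. Differences in covered percent were tested with limma over all genes with a peak in any of the 12 libraries of the mark, with Benjamini-Hochberg adjustment and a threshold of 0.05. No label states that the libraries of 1 genotype were made from separate batches of plants, so the spread among them may be technical. In that case the p-values cover no spread between batches. They also do not rest on the spread among these libraries alone. The residual spread of each gene was raised to at least a floor set by the 200 bp window, and limma shrinkage across genes was applied.

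All 5 genes carried a K4 peak in each of the 12 K4 lists. REF6, ELF6 and JMJ13 carried no H3K27me3 on the gene body in any of the 18 H3K27me3 lists, 12 single-end and 6 paired-end. JMJ30 carried it in the 2 lists of 35S::ULT1, and JMJ32 carried it in the paired-end list of clf-28. Among all protein-coding genes, 47.0% had no H3K27me3 peak on the body in the 18 lists, 60.2% had a K4 peak in all 12 K4 lists, and 38.3% had both properties, as REF6, ELF6 and JMJ13 did.

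**Figure D1:**
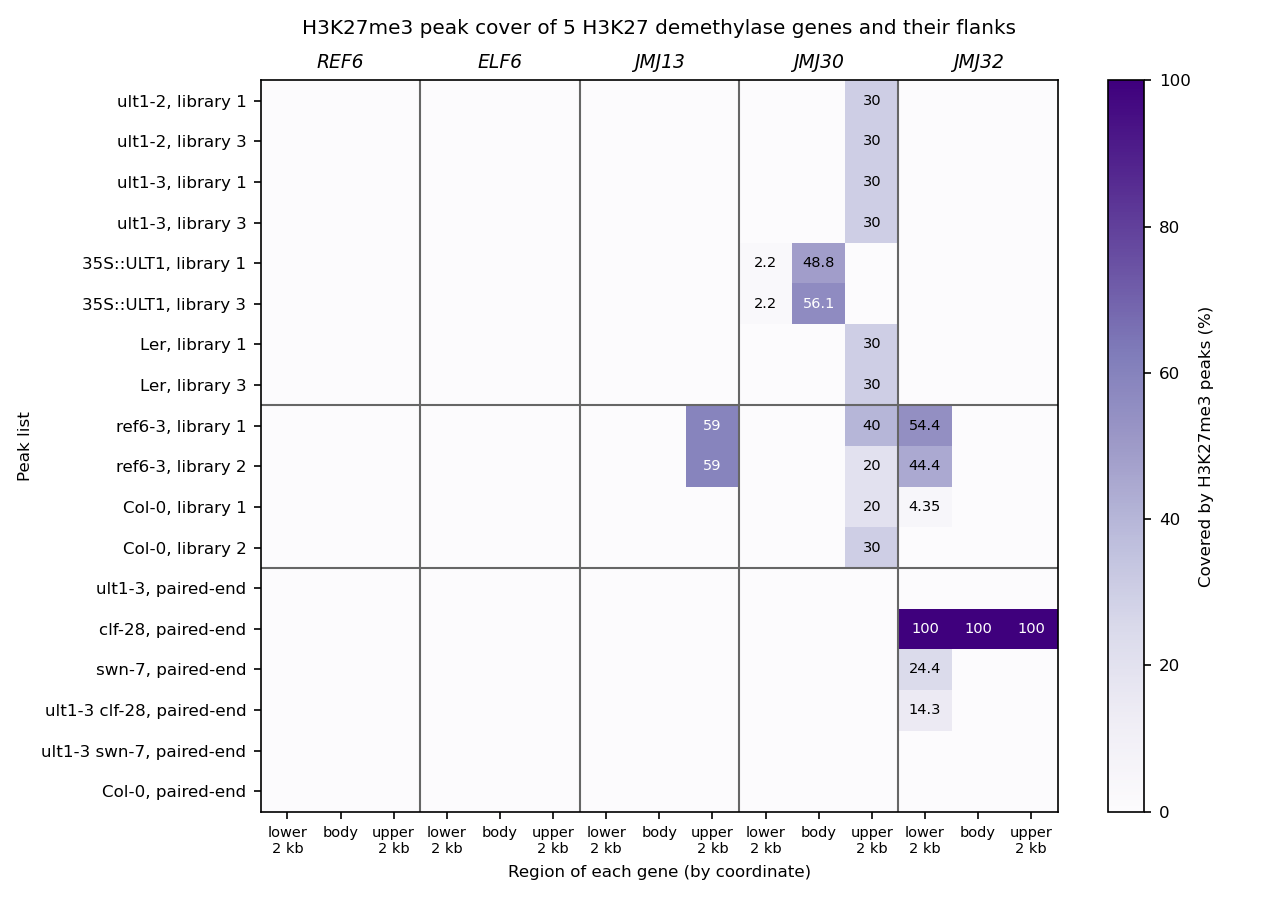
Percent of the 2 kb on the lower-coordinate side, the gene body and the 2 kb on the upper-coordinate side of each gene covered by H3K27me3 peaks, 1 row per peak list; blank cells are 0. The bodies of REF6, ELF6 and JMJ13 are blank in all 18 rows, the body of JMJ30 is covered for 48.8% and 56.1% in the 35S::ULT1 rows, and the body of JMJ32 is fully covered in the clf-28 row.

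JMJ30 carried H3K27me3 in 35S::ULT1 and not in Ler. Peaks covered 48.8% and 56.1% of the JMJ30 body in 35S::ULT1 libraries 1 and 3, against 0% in both libraries of Ler. Cover was also 0% in both libraries of ult1-2, ult1-3, ref6-3 and Col-0 and in all 6 paired-end lists. Both 35S::ULT1 libraries thus stood apart from the other 10 single-end lists and from the paired-end lists. The mean was 52.4% ± 5.09 in 35S::ULT1 and 0% ± 0 in Ler (SD, n = 2 each), a difference of 52.4 percentage points (SE 5.64, 95% interval 39.6 to 65.3, limma adjusted p = 0.000764). JMJ30 was the 1 of the 5 genes that could be tested for H3K27me3 on the body, since the other 4 had no peak in the 12 libraries. It entered the test through its 35S::ULT1 peaks alone, so its call is not a share to set against the 13.2% of 12546 tested genes that passed, 1604 of them higher and 58 lower in 35S::ULT1. By the size of its difference JMJ30 ranked 932 of 12546.

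The JMJ30 peak in 35S::ULT1 lay on chromosome 3 from 7275601 to 7277000 in library 1, with 1138 reads and 3.24-fold over control as the authors' own value. In library 3 it lay from 7275601 to 7277200, with 1192 reads and 3.70-fold. It began just outside the lower-coordinate end of the gene and ended inside it, with 1356 and 1556 bp on the gene. By fold over control it stood at the percentile 57.2 and 64.4 of the peaks of its own list, so it was a peak of middling strength among those of 35S::ULT1.

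A second feature of the JMJ30 surroundings ran the other way. In the other 10 single-end lists a small H3K27me3 peak lay beyond the upper-coordinate end of JMJ30, in the gap before the next gene, AT3G20820. It spanned 7279201 to 7279800 in both libraries of ult1-2, ult1-3 and Ler, with folds of 1.84 in Ler library 1 to 3.44 in ult1-2 library 3. In ref6-3 it spanned 7279201 to 7280000 in library 1 and 7279401 to 7279800 in library 2, and in Col-0 it spanned 7279401 to 7279800 in library 1 and 7279201 to 7279800 in library 2. Neither 35S::ULT1 list had it, so the upper 2 kb was covered for 0% in both 35S::ULT1 libraries and for 30.0% in both Ler libraries. The 6 paired-end lists, wild-type Col-0 included, lacked the small peak too, with 0% of the upper 2 kb covered. Its absence is therefore not particular to 35S::ULT1 over all H3K27me3 lists. Loss of the small peak alone was not tested. Together with its flanks, JMJ30 was covered for 22.1% ± 2.09 in 35S::ULT1 and 8.85% ± 0 in Ler (SD, n = 2 each).

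The next gene on that side moved with JMJ30. AT3G20820 was covered for 63.1% in both 35S::ULT1 libraries, against 0% in both Ler libraries (difference 63.1 points, SE 8.45, limma adjusted p = 0.00175), and for 0% in every other H3K27me3 list. Like JMJ30, AT3G20820 entered the test through 35S::ULT1 alone. Its peak, from 7280801 to 7281800 in both 35S::ULT1 lists, was separate from that on JMJ30 and weaker, with folds of 1.78 and 2.16. When the gene was measured with its flanks, which hold the small peak of the other single-end genotypes, the difference was 7.16 points and did not pass (limma adjusted p = 0.0928). With every list limited to its 6379 peaks of highest fold, AT3G20820 was covered for 0% in all lists, 35S::ULT1 included. The gene on the other side, AT3G20800, had no H3K27me3 in any list.

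**Figure D2:**
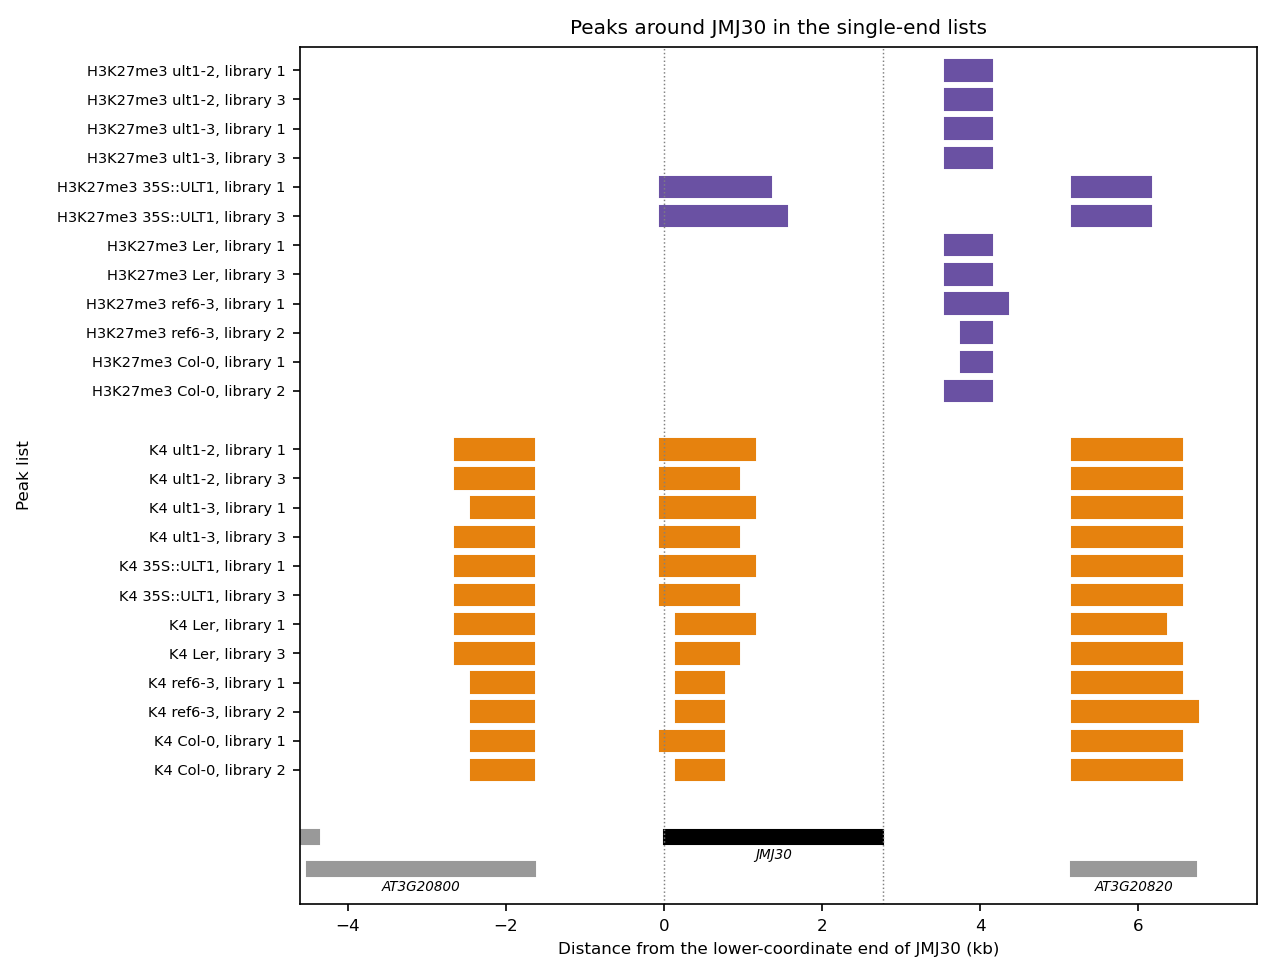
Peaks around JMJ30 in the 12 single-end H3K27me3 lists (purple) and the 12 K4 lists (orange), with protein-coding genes below (JMJ30 in black); the x axis is the distance in kb from the lower-coordinate end of JMJ30 and dotted lines mark both ends of the gene. The 2 rows of 35S::ULT1 have H3K27me3 peaks on JMJ30 and AT3G20820, and the other 10 rows have a small peak between them.

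The lists of 35S::ULT1 were the longest of the single-end H3K27me3 lists, with 9578 and 9945 peaks, against 7753 and 7720 in Ler. Reads inside peaks numbered 19.9 and 17.8 M in 35S::ULT1, against 20.0 and 14.4 M in Ler. With every list limited to its 6379 peaks of highest fold, the JMJ30 difference was again 52.4 points (limma adjusted p = 0.00105). JMJ30 also passed in each of the 10 other alternatives, including the 4 in which 1 library was left out, with adjusted p of 1.18e-06 to 0.00778 over all 11.

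JMJ30 had no H3K27me3 peak on the body in the ult1 mutants. The difference from Ler was 0 points in ult1-2 and in ult1-3 (95% interval of each, -12.9 to 12.9). Cover did not vary within these genotypes, so the width of the intervals came from the spread pooled over genotypes and its floor. JMJ30, at 0% in ult1-2, ult1-3 and Ler, could not be called, and the other 4 genes were not tested. Over all tested genes, 0.199% were called in ult1-2 and 0.414% in ult1-3. JMJ30 had none in ref6-3 either, with a difference of 0 points from Col-0 (95% interval -12.9 to 12.9, its width of the same origin). With 0% in both genotypes it could not be called there, and the other 4 genes were again not tested. Over all tested genes, 15.3% were called in ref6-3. The change in 35S::ULT1 exceeded the change in ref6-3 by 52.4 points (SE 7.98, 95% interval 34.2 to 70.7, limma adjusted p = 0.00297). As the change in ref6-3 was 0 points, these 52.4 points were those of 35S::ULT1 against Ler again. Over all genes, 15.2% were called in this test of the difference.

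Of all protein-coding genes, 1090 (3.97%) had H3K27me3 on the body in both 35S::ULT1 lists and in none of the other 10 single-end lists. In 919 (3.35%) of all genes the paired-end lists were at 0 as well, and in 683 (2.49%) K4 peaks were also present in all 12 K4 lists, as in JMJ30. The genes most like JMJ30 over all 30 lists, by the mean absolute difference in covered percent, were AT2G47680 at 3.17 points, AT5G13230 at 3.37 and AT3G53830 at 3.52. In 35S::ULT1, H3K27me3 covered 32.6% of AT2G47680 and 36.0% of AT5G13230 in both libraries, and it covered 41.0% and 58.7% of AT3G53830.

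JMJ30 also carried K4 trimethylation in 35S::ULT1. The K4 peak covered 41.6% and 34.4% of the body in 35S::ULT1 libraries 1 and 3, the same 2 values as in ult1-2 and ult1-3, against 36.0% and 28.8% in Ler. It covered 21.6% and 21.6% in ref6-3, against 27.2% and 21.6% in Col-0. The ranges of the mutants and their wild type overlapped in each comparison. Compared by library number, a pairing taken from the data and not from the labels, ult1-2, ult1-3 and 35S::ULT1 were each above Ler in libraries 1 and 3. The peak began at 7275601 in those genotypes and at 7275801 in both Ler lists. These comparisons share the Ler lists, and the share of all genes with such a gap is not given here, so nothing is read from it. In ref6-3, library 1 was below that of Col-0 and library 2 equalled it. JMJ30 was not called for K4 with the pairing blocked. The difference from Ler was 5.62 points in each of ult1-2, ult1-3 and 35S::ULT1 (SE 5.14, 95% interval -5.85 to 17.1, limma adjusted p = 1 in each). In 35S::ULT1 the K4 peak began at 7275601, where the H3K27me3 peak also began, and ended at 7276800 in library 1 and at 7276600 in library 3, inside the H3K27me3 peak. Both marks thus occupied the same stretch of the gene in these seedlings. Whether they lay in the same cells was not measured.

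JMJ32 kept a bare body in every single-end H3K27me3 list and became fully covered in 1 paired-end list. H3K27me3 covered 100% of the JMJ32 body in clf-28, against 0% in Col-0, and 0% in the 4 other mutants, namely ult1-3, swn-7 and the double mutants ult1-3 swn-7 and ult1-3 clf-28. The clf-28 peak ran on chromosome 3 from 16863201 to 16873800, a width of 10.6 kb that was larger than 99.6% of the peaks of that list. It also covered 100% of UMAMIT3, a transporter-family gene that overlaps the lower-coordinate end of JMJ32, against 0% in Col-0. It covered 79.7% of RUS1, on the upper-coordinate side, against 0% in Col-0. The receptor-like kinase gene CRK4 at its far end was covered for 96.4%, against 100% in Col-0. With 1 list per genotype there is no replicate check of this difference.

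The clf-28 peak began near CRK4, which carried H3K27me3 in all 18 lists, and the edge of the CRK4 domain that faces JMJ32 varied between genotypes. It ended at 16867400 in swn-7 and at 16867200 in ult1-3 clf-28, so that 24.4% and 14.3% of the lower 2 kb of JMJ32 was covered, against 0% in Col-0. In the single-end lists it ended at 16868000 and 16867800 in ref6-3, covering 54.4% and 44.4% of the lower 2 kb, against 4.35% and 0% in Col-0. Both ref6-3 libraries were above both Col-0 libraries, and the share of all genes with such a gap in a flank is not given here. The lower 2 kb was at 0% in all 8 lists of ult1-2, ult1-3, 35S::ULT1 and Ler, where CRK4 was covered for 44.1%.

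**Figure D3:**
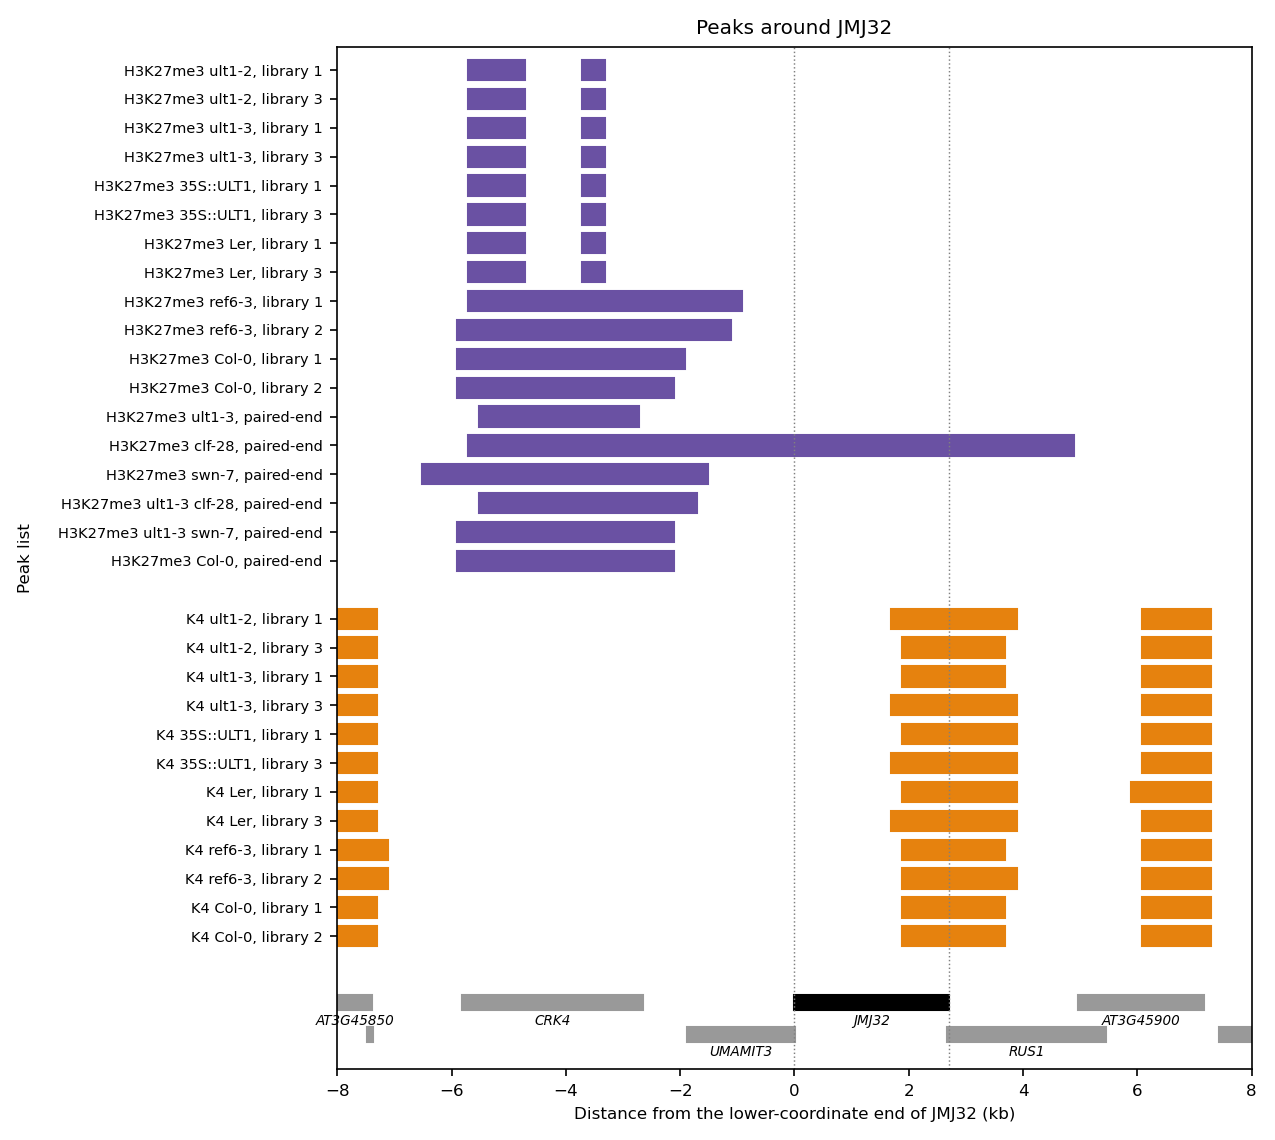
Peaks around JMJ32 in the 18 H3K27me3 lists (purple) and the 12 K4 lists (orange), with protein-coding genes below (JMJ32 in black); the x axis is the distance in kb from the lower-coordinate end of JMJ32 and dotted lines mark both ends of the gene. The peak of the clf-28 row crosses the whole gene, and the peaks of the other H3K27me3 rows end before it.

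Measured as body and flanks together, JMJ32 was covered for 14.7% ± 2.11 in ref6-3 and 0.650% ± 0.919 in Col-0 (SD, n = 2 each), a difference of 14.1 points (SE 2.28, limma adjusted p = 0.000837). JMJ13 also passed in that measurement, in which 3 of the 5 genes had a peak and were tested, JMJ13 through its ref6-3 peak alone. Over all 20019 genes tested, 23.3% passed. The peak behind the JMJ32 value lay on UMAMIT3, which was covered for 51.1% and 40.5% in ref6-3, against 0% in both Col-0 libraries (difference 45.8 points, SE 7.22, limma adjusted p = 0.00194). UMAMIT3 entered its test through ref6-3 alone.

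In the paired-end comparisons, a difference of at least 50 percentage points was used as a size, without a test. JMJ32 was past that size in clf-28 against Col-0, where 27.7% of the genes with a peak in either list were, 941 higher and 1478 lower. It was also past it in ult1-3 clf-28 against clf-28, being lower in ult1-3 clf-28, where 31.1% of genes were past it. The other 4 genes had no body peak in any paired-end list and could not pass. In the other 5 comparisons none of the 5 genes had a body peak in either list, so none could pass. The shares of genes past the size there, against Col-0, were 10.7% for swn-7, 14.6% for ult1-3, 12.1% for ult1-3 swn-7 and 38.5% for ult1-3 clf-28. The share was 7.68% for ult1-3 swn-7 against swn-7. These comparisons share the Col-0, clf-28 or swn-7 list.

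The clf-28 list held 5987 peaks over 13.6 Mb, against 5357 peaks over 18.9 Mb in Col-0, and the ult1-3 clf-28 list held 3703 peaks over 9.55 Mb. With every paired-end list limited to the 3703 peaks of highest deposited score, the JMJ32 difference between clf-28 and Col-0 was again 100 points. Of all protein-coding genes, 519 (1.89%) were covered for at least 50% in clf-28 and not at all in the other 5 paired-end lists. In 270 (0.984%) the single-end lists were at 0 as well, and 39 of these (0.142% of all genes) were fully covered in clf-28, as JMJ32 was. The genes most like JMJ32 over the 30 lists were AT1G74385 at 1.11 points, AT5G38640 at 1.60 and PHT4;3 at 1.85, with 100%, 76.3% and 80.7% cover in clf-28.

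The K4 peak of JMJ32 lay across its upper-coordinate end and ran into RUS1, which overlaps JMJ32 there by 32 bp, so its reads could belong to either gene. In ult1-2 it covered 37.4% and 30.0% of the JMJ32 body. Libraries 1 and 3 of ult1-3, of 35S::ULT1 and of Ler each had 30.0% and 37.4%. It covered 30.0% in both libraries of ref6-3 and in both of Col-0. These values differ by a single window, and the mean of each genotype equalled that of its wild type. K4 was not profiled in clf-28, so the K4 state of JMJ32 beside its H3K27me3 is not known.

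REF6 carried no H3K27me3 on the body or within 2 kb of it in any list. Its K4 cover, in contrast, stood highest in ref6-3. K4 peaks covered 45.8% and 45.8% of REF6 in ref6-3, against 24.3% and 20.7% in Col-0. Both libraries of ult1-2 and of ult1-3 had 24.3%, and 35S::ULT1 had 27.9% and 24.3%, against 27.9% and 24.3% in Ler. Both ref6-3 libraries were above the other 10. REF6 is itself the gene mutated in ref6-3, and the labels do not describe the lesion. An effect of the lesion on the mark at this locus and an effect of losing the protein cannot be told apart here, and neither was tested.

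The added cover in ref6-3 came from a second peak at the other end of the gene. All 12 lists had a K4 peak over the lower-coordinate end of REF6, from 17935201 to 17936600 in ref6-3 library 1 and in Col-0 library 1, with 6.97-fold and 7.30-fold over control. In ref6-3 a second peak ran from 17939601 to 17942200 in library 1 and to 17942000 in library 2, taking in the last 1192 bp of REF6 and the near end of the neighbouring AT3G48440. It had 1381 and 1890 reads, with folds of 2.72 and 3.15. In the other 10 lists the peak on that side began at 17941201, 408 bp beyond REF6, and lay on AT3G48440 alone, with 611 and 653 reads in Col-0. Per kb of peak and 1 M reads in peaks, the second peak of ref6-3 held 30.2 and 35.0 reads, against 48.7 and 45.6 in the first. AT3G48440 itself was covered for 41.1% and 34.0% in ref6-3, against 28.5% in both Col-0 libraries.

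**Figure D4:**
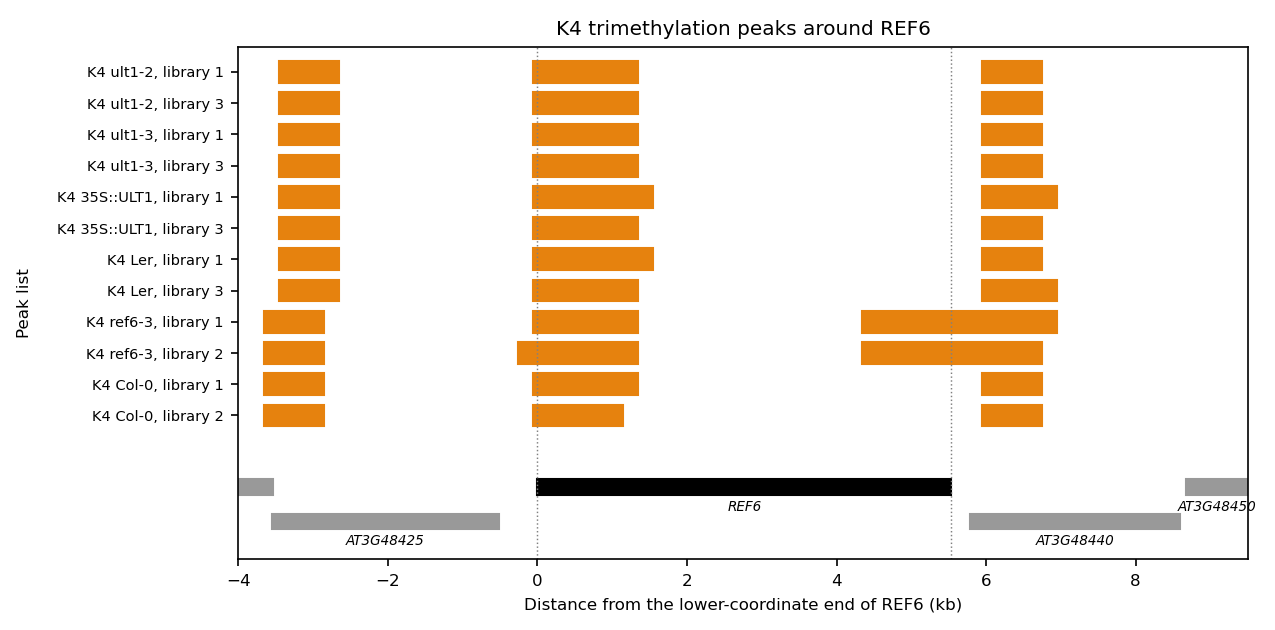
K4 peaks around REF6 in the 12 K4 lists, with protein-coding genes below (REF6 in black); the x axis is the distance in kb from the lower-coordinate end of REF6 and dotted lines mark both ends of the gene. In the 2 ref6-3 rows the peak on the right reaches 1192 bp into REF6, and in the other 10 rows it begins 408 bp beyond the gene.

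The mean K4 cover of REF6 was 45.8% ± 0 in ref6-3 and 22.5% ± 2.55 in Col-0 (SD, n = 2 each), a difference of 23.3 points (SE 3.54, 95% interval 15.4 to 31.2). It did not pass the limma test fitted over all genes with the pairing of libraries left out (adjusted p = 0.0970). When same-numbered K4 libraries were blocked, it was just past the threshold (limma adjusted p = 0.0494, with 0.238% of genes called). That pairing was taken from correlations in these same data, and no label gives it. In the fit that left the pairing out, none of the 5 genes was called, where 0.00518% of the 19317 genes tested were, a single gene that was lower in ref6-3. By p REF6 ranked 11 and by size of difference 278. Without the block, REF6 was the 1 of the 5 genes called without the floor on the spread (1.38%, REF6 adjusted p = 0.000737), with equal numbers of peaks (0.132%, adjusted p = 0.0489) and with body and flanks together (0.0633%, adjusted p = 0.0200). It was not called in the 7 other alternatives with no block, in which adjusted p ran from 0.0655 to 0.564, the highest without Col-0 library 2. Among tested genes, 10.3% had ref6-3 and Col-0 values that did not overlap, and 54 had a difference of at least that of REF6 with both ref6-3 libraries above the other 10.

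The genes most like REF6 over the 30 lists were EDA7 at 0.911 points, AT1G51380 at 1.29 and AT1G69550 at 1.41. Their K4 cover reached at most 42.7%, 39.9% and 50.2% of the body, and none had H3K27me3 in any list.

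ELF6 had no H3K27me3 on the body or in its flanks in any list, and its K4 cover varied by at most 2 windows. Cover was 17.9% for both libraries of ult1-2, 14.5% and 17.9% for ult1-3, and 21.4% and 17.9% for 35S::ULT1, against 14.5% for both of Ler. They covered 14.5% and 17.9% in ref6-3, against 14.5% in both of Col-0. In ult1-2 and 35S::ULT1 both libraries were above both of Ler. The share of all genes with such a gap is not given here, so nothing is read from it. The differences from Ler were 3.42 points in ult1-2 (95% interval -3.95 to 10.8) and 5.14 points in 35S::ULT1 (95% interval -2.24 to 12.5), with limma adjusted p = 1 for both. The K4 peak of ELF6 extended beyond the lower-coordinate end of the gene. The nearest genes by likeness were TOP1BETA at 0.435 points, DMS11 at 0.50 and AT4G26630 at 0.504.

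JMJ13 had no H3K27me3 on the body in any list, but in ref6-3 a peak lay beside it. It spanned 19052201 to 19053400 on chromosome 5 in both ref6-3 libraries, with folds of 1.61 and 2.05, and covered 59.0% of the upper 2 kb of JMJ13, against 0% in both Col-0 libraries and in all other lists. The peak lay on the neighbour AT5G46915, which was covered for 56.1% in both ref6-3 libraries and 0% in both Col-0 libraries (difference 56.1 points, SE 7.65, limma adjusted p = 0.000847). AT5G46915 entered its test through ref6-3 alone. Body and flanks of JMJ13 together were covered for 13.0% ± 0 in ref6-3 and 0% ± 0 in Col-0 (SD, n = 2 each; limma adjusted p = 0.000545). The peak was a weak one. With only peaks of q-value under 1e-20, or with equal numbers of peaks, library 1 lost it, and the AT5G46915 difference was 28 points and did not pass (limma adjusted p = 0.370 and 0.340).

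K4 peaks covered 19.8% of JMJ13 in library 1 and 23.8% in library 3 of both ult1-2 and ult1-3, and 19.8% in both libraries of 35S::ULT1 and of Ler. They covered 23.8% in both libraries of ref6-3, against 19.8% in both of Col-0. All differences were at most 1 window, and the limma adjusted p was 1 in each comparison. On the upper side, K4 peaks covered 69.0% of the flank in 35S::ULT1 library 1 and 28.9% in ult1-2 library 1, and 0% in all other K4 lists, so neither was repeated in the second library of its genotype. The nearest genes by likeness were WAVE2 at 0.214 points, TPL, the TOPLESS corepressor gene, at 0.297, and CHB3 at 0.368. All 3 had K4 cover between 19.3% and 23.9%, so that near neighbours of JMJ13 were genes with a K4 peak of the same relative width.

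**Figure D5:**
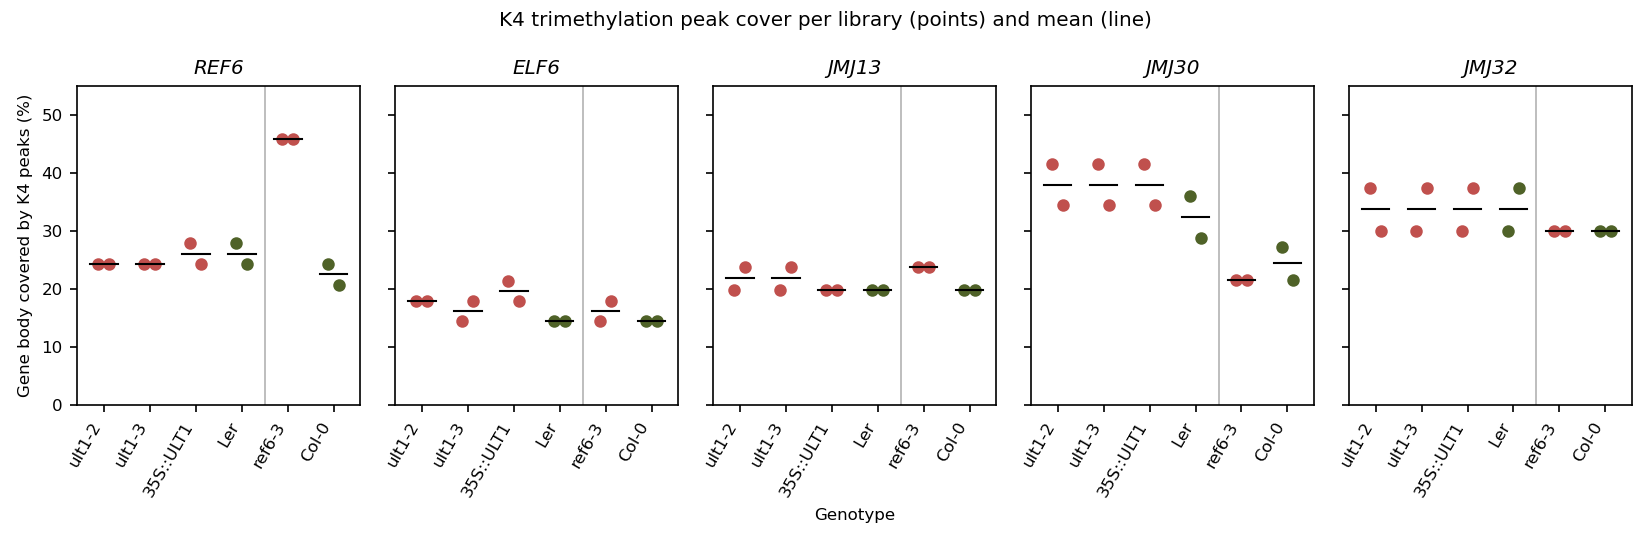
Percent of each gene body covered by K4 peaks in each library (points; red for mutants and 35S::ULT1, green for wild types) and the mean of 2 libraries (line), with a grey line between the Ler and Col-0 families. The 2 ref6-3 points of REF6 at 45.8% lie above its other points, and elsewhere mutants lie within 2 windows of their wild type.

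Across the 5 genes, the other K4 tests called none. No member was called in ult1-2, where limma called 0% of the 19317 genes (148 genes at an unadjusted p under 0.05, and 67 called without the floor on the spread), in ult1-3 (0.0155% of genes) or in 35S::ULT1 (0.0155%). By median cover over the 12 lists the order was JMJ30 at 34.4%, JMJ32 at 30.0%, REF6 at 24.3%, JMJ13 at 19.8% and ELF6 at 16.2%, and the ranges of neighbours in that order overlapped. As a share of the gene, cover is larger in short genes for the same peak width.

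Other genes of the same pathways were read out of the same tests. Of 20 other lysine demethylase genes, 16 had no H3K27me3 on the body in any of the 18 lists, and 3 had some in the single-end lists. In ref6-3, 2 of these 3 rose and none fell, where 15.3% of all tested genes were called, 1721 higher and 204 lower. Of the 3, 1 that was not called had a peak in ref6-3 alone, and nothing is read from so few genes. JMJ15, a demethylase of lysine 4 of histone H3, was covered for 100% ± 0 in ref6-3 and 44.6% ± 0 in Col-0 (SD, n = 2 each; limma adjusted p = 0.000375). JMJ18, of the same group, was covered for 18.7% ± 0 in ref6-3 and 0.651% ± 0 in Col-0 (limma adjusted p = 0.0137), and its call was lost when any 1 of the 4 libraries was left out (adjusted p of 0.0552 to 0.0699) and when only ref6-3 and Col-0 were fitted (0.379). None of the 3 was called in 35S::ULT1, ult1-2 or ult1-3.

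Of 18 Polycomb genes, 9 had H3K27me3 in the single-end lists. In 35S::ULT1, 3 of the 18 were called, all higher. These 3 and 1 more had peaks in 35S::ULT1 alone and entered the test through them, so their number is a description and is not read against the 13.2% of all tested genes called. The 3 called, BMI1A, RING1B and RING1A, encode ring-finger proteins of Polycomb repressive complex PRC1. BMI1B and BMI1C, of the same kind and in the same list, were not called. BMI1A was covered for 21.0% ± 0 in 35S::ULT1 and 0% ± 0 in Ler (limma adjusted p = 0.00862). RING1B was covered for 22.5% ± 4.55 and RING1A for 17.2% ± 0 in 35S::ULT1, and both for 0% ± 0 in Ler (SD, n = 2 each; limma adjusted p = 0.0165 and 0.0394). RING1A did not pass without any 1 of the 4 libraries (adjusted p of 0.123 to 0.146), RING1B did not without 35S::ULT1 library 3 (0.120) or either Ler library (0.0711 and 0.0741), and BMI1A did not without Ler library 3 (0.0504). With only 35S::ULT1 and Ler fitted none of the 3 passed (adjusted p of 0.0624 to 0.198). With equal numbers of peaks, RING1A and RING1B were covered for 0% in all lists, and BMI1A passed (adjusted p = 0.0184).

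In ref6-3, 1 of the 9 Polycomb genes rose and none fell, which is near the 15.3% of all tested genes called there. EMF1, a chromatin protein that acts with PRC1 and PRC2, was covered for 87.7% ± 2.46 in ref6-3 and 54.7% ± 4.91 in Col-0 (SD, n = 2 each; limma adjusted p = 0.0109), and did not pass without either ref6-3 library or without Col-0 library 2 (adjusted p of 0.0509 to 0.0751), or with only ref6-3 and Col-0 fitted (0.141). Of 12 circadian clock genes, 9 had no H3K27me3 in any of the 18 lists, 1 had some in the single-end lists, and none was called. PRR5, a clock repressor gene, was covered for 51.2% in paired-end clf-28, against 0% in Col-0 and in the other 4 paired-end lists, and for 0% in clf-28 once all lists held the same number of peaks. None of the 3 lists had a gene called for K4 in any comparison.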

How the data were processed

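The submitters' processing notes name TAIR10 as build. For the single-end series they list SICER 1.1, BWA 0.6.2-r126, CASAVA 1.8.2, Picard 1.93, SAMtools 0.1.19 and bedtools 2.17.0-97, and for the paired-end series SICER 1.1, bedtools 2.30.0, BWA 0.7.17-r1188, Picard 2.26.10 and SAMtools 1.16.1. The settings of these tools were not given in the sources used here. Of the deposited peak lists, 24 are single-end, 1 per library, and 6 are paired-end, 1 per genotype, with no statement of how libraries were combined. Without a header, the deposited columns were identified by their values and by SICER's usual order. They were the count of ChIP reads in the peak, not normalized, the fold of ChIP over control scaled to depth by the authors, and the authors' adjusted p-value (q-value), at most 9.99e-05. The 24 deposited columns of control counts were not used here. The paired-end value was taken as the authors' score of unstated unit, which served only to rank the peaks of 1 list. Per the labels' protocols, repeat reactions made with one extract of nuclei were pooled for a sample.

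Gene positions came from a RefSeq table of assembly TAIR10.1. The shift that best aligned peaks with genes was 0 in 25 of 26 windows and 100 bp in the other. The table gives no strand, so flanks are named by coordinate. No sequence was used here, and the planned description of promoter motifs was not made. Cover was computed with Python 3.11.15, numpy 2.4.6 and pandas 2.3.3, and tested with limma 3.58.1 in R 4.3.3 (trend and robust shrinkage, 12 libraries of a mark in 1 fit). The residual spread of each gene was raised to at least 1 window of 200 bp divided by the square root of 2, since many genes had equal cover in both libraries. Peaks carry no count behind a cover of 0, so no limit of detection is given. The alternatives were no such floor, only the genotypes compared, equal numbers of peaks, q-value under 1e-20, body with 2 kb flanks, every protein-coding gene, the library number as a block, and each library left out in turn. The library number differs from the labels in 1 K4 list of Ler and 1 of ult1-2, so these 2 lists were assigned to their genotype only, and K4 library numbers are those of the list names. Deviations of same-numbered K4 libraries from their genotype mean correlated at 0.442 to 0.530 in the 6 pairs of Ler, ult1-2, ult1-3 and 35S::ULT1 and at 0.362 between ref6-3 and Col-0. As all 7 were over 0.1, the numbers were taken to pair the K4 libraries, from the data and not from the labels. For H3K27me3 the correlations were -0.0319 to 0.0505, apart from 0.444 between ult1-2 and ult1-3, and the numbers do not pair them.

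The text names the 5 genes, their nearest neighbours and genes under a shared peak, the 3 genes with the most similar cover over the 30 lists (none within 10 kb), and genes of the 3 lists that passed. The members and lists were chosen with earlier results of these data known.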

Additional observations from a re-analysis of the deposited data

Results flagged for a closer look

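The change of H3K27me3 over JMJ30 in 35S::ULT1 against Ler differed from that in ref6-3 against Col-0, by a test of the difference itself. The difference was 52.4 percentage points of the gene body (SE 7.98, limma adjusted p = 0.00297). Cover was 48.8% and 56.1% in 35S::ULT1 and 0% in both libraries of Ler, ref6-3 and Col-0. JMJ30 entered the test through its 35S::ULT1 peaks alone. With ref6-3 and Col-0 at 0%, the difference on the body is that of 35S::ULT1 against Ler and no separate result. The test passed in all 15 alternatives, with differences of 11.8 to 56.1 points and adjusted p of 6.45e-06 to 0.0332.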

How the results depend on the processing

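The H3K27me3 call of JMJ30 in 35S::ULT1 kept its direction and its side of the threshold in all 11 alternatives, and no result reversed in any alternative. With the gene body and 2 kb flanks as the unit, 3 of the 5 genes and not 1 entered the H3K27me3 test, JMJ13 through its ref6-3 peak alone. Of these, 2 were called in ref6-3, where 23.3% of all tested genes were (0 with the body alone, where 15.3% were). In the difference of differences 3 were called (1 with the body alone, where 15.2% of all tested genes were), and the count of all genes rose there too, as given below. Nothing is read from these counts of so few genes. For K4 in ref6-3, 1 of the 5 genes, REF6, was called without the floor, with equal peaks, with flanks and with the replicate block (adjusted p = 0.0494), and 0 otherwise.

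Counts of all genes called moved more. For H3K27me3 in ult1-2 (25) they were 257 without the floor, 169 with only the genotypes compared, 59 with equal peaks, 52 with the stricter q-value, 281 with flanks and 4 with the replicate block, and 2 to 7 with 1 library left out. In ult1-3 (52) they were 266 without the floor, 99 with only the genotypes compared, 374 with flanks, 31 with all protein-coding genes, 10 with the replicate block and 1 to 22 with 1 library left out. In 35S::ULT1 (1662) they were 679 with equal peaks, 5108 with flanks and 973 to 1287 with 1 library left out. In ref6-3 (1925) they were 4671 with flanks. The difference of differences (1912) called 3438 without the floor and 5535 with flanks.

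For K4 in the same order of settings (no floor, only the genotypes compared, equal peaks, stricter q-value, flanks, all protein-coding genes, replicate block, 1 library left out), ult1-2 gave 67, 94, 0, 0, 0, 0, 8 and 0 to 7, and ult1-3 gave 110, 169, 4, 3, 7, 1, 11 and 0 to 2. The values for 35S::ULT1 were 76, 155, 0, 0, 3, 0, 10 and 0 to 51, and those for ref6-3 were 266, 211, 25, 10, 15, 0, 46 and 0 to 3.

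In the paired-end lists, a size of 30 points gave 1806 genes in ult1-3, 1430 in swn-7 and 1562 in ult1-3 swn-7 against Col-0, and 1022 in ult1-3 swn-7 against swn-7. With flanks the counts against Col-0 were 178 for swn-7, 190 for ult1-3, 232 for ult1-3 swn-7, 1219 for clf-28 and 1844 for ult1-3 clf-28. They were 463 for ult1-3 clf-28 against clf-28 and 71 for ult1-3 swn-7 against swn-7. The cause of these shifts was not tested. The replicate block changed no other call of the 5 genes, and for RING1A, whose H3K27me3 libraries are not paired by number, it gave an adjusted p of 0.0804. The resolution is 1 window of 200 bp, 2 libraries per genotype limit the single-end tests, and no depth is known for the paired-end lists.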
